A study of Mus musculus with 2 samples.

Results

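Blood and immune cell identity genes are a set of 34 genes whose products define leukocytes and their lineages, and the methylation differences at them were read from a comparison of adipose progenitors. The set was divided by textbook expression into 7 genes shared by most leukocytes, 16 myeloid genes, 10 lymphoid genes and Kit, which marks blood stem cells and mast cells. A region was assigned to a gene when it overlapped the RefSeq gene body (mm10) extended by 5 kb on both sides. The rule found 14 of the 34139 regions in the authors' list of differentially methylated regions, at 9 of the 34 genes, where the comparison covered 21887 protein-coding genes in all.

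The study sequenced bisulfite-converted DNA from 2 libraries of C57BL/6 mouse fat, 1 of PDGFRα+ progenitors and 1 of CD137+ progenitors. Bisulfite turns unmethylated cytosine into uracil and leaves methylated cytosine in place. Both libraries were labelled as treated with dexamethasone (DEX), a synthetic glucocorticoid, and the cells had been sorted on magnetic columns, grown and then put through an adipogenic cocktail. The age and sex of the animals, whether animals were pooled and which fat depot each library came from are not given by the labels, and neither library was left without DEX. PDGFRα (CD140a) is a receptor found widely on fat progenitors, and CD137, the product of Tnfrsf9, has been linked to precursors of beige fat cells and is also carried by activated lymphocytes. The adipose progenitor markers named for the check could not show what the cells were, since the list holds no level per library. In it, Pdgfra had 1 negative and 1 positive region within 5 kb, Dpp4, Cd34 and Thy1 had 1 positive region each, and Pdgfrb, Ly6a and Tnfrsf9 had none (0).

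Each region carries a signed score from the authors, whose scale and order of subtraction are not stated. The list names the PDGFRα+ library before the CD137+ library, so a negative score would mean lower methylation in the PDGFRα+ library if the second name was subtracted from the first. The score ranks regions within this list and is not a methylation difference. The coverage behind each region is unknown, and with 1 library per group there was no replicate error to compare a difference with, so no test was made. In DNA from many cells, a different mix of cells and a different methylation level in the same cells cannot be told apart.

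Fat holds resident macrophages, dendritic cells, mast cells and lymphocytes beside its progenitors, and magnetic sorting can carry some of them along. Identity genes of blood cells are as a rule unmethylated at their regulatory DNA in the lineage that uses them and methylated in cells of other lineages. A leukocyte gene is for this reason a common place to look for blood cells in a methylation profile of another tissue.

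Start-site sequences, from RefSeq (GRCm38.p6), were found for 25 of the 34 genes, which gave 34 promoters of 300 bases (250 before the start to 50 after it). None of these promoters was overlapped by a region (0 of 34), against 0.903% of 21263 promoters of protein-coding genes. The promoters differed widely in CpG, the dinucleotide that carries most methylation in mammals. They ran from 1 CpG at Ccr2, Il7r and Lyz2 to 52 at 1 Ikzf1 promoter, while the other Ikzf1 promoter held 2. With overlapping promoters of a gene counted separately, the median was 5.5, against 13 in all protein-coding promoters. The following 4 are shown because their genes had regions elsewhere and because they span CpG-rich and CpG-poor starts. Capitals mark each CpG.
Irf8, chr8:120736108-120736407, plus strand, 38 CpG: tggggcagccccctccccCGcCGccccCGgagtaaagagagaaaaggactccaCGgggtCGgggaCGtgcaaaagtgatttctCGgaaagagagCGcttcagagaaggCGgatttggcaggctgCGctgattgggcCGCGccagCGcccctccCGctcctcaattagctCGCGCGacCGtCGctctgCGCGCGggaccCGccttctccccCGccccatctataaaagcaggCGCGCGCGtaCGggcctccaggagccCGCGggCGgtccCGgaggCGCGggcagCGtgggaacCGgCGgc
Pax5, chr4:44710645-44710944, minus strand, 23 CpG: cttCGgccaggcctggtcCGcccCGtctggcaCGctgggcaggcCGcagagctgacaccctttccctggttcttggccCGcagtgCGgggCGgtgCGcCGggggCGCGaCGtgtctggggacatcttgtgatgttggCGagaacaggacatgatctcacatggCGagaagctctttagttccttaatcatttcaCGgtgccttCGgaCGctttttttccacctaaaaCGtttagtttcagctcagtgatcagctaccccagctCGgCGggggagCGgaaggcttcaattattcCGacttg
Cx3cr1, chr9:120068247-120068546, minus strand, 5 CpG: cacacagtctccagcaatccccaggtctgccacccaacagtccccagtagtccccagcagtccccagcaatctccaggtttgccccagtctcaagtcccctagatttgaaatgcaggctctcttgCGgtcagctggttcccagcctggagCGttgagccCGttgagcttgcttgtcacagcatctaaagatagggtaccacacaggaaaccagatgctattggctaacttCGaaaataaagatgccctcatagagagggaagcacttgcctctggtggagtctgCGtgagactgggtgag
Cd8a, chr6:71373177-71373476, plus strand, 3 CpG: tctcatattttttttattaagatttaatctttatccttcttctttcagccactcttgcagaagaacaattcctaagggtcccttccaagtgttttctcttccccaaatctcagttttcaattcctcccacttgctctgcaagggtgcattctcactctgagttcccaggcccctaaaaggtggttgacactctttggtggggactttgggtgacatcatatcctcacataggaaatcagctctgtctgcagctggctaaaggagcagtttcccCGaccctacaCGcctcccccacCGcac

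The share of identity genes with a region was somewhat below the background of the list. The 9 genes with at least 1 region were 26.5% of the 34, and 35.1% of all protein-coding genes had one. Negative regions stood at 7 genes (20.6%, against 27.8% of protein-coding genes) and positive regions at 3 genes (8.82%, against 16.9%). Regions whose score was at least 100 in size stood at 2 genes, Irf8 and Pax5 (5.88%, against 10.8%). The gene windows together spanned 1521 kb and held 9.2 regions per Mb, against 16.3 per Mb in the windows of all protein-coding genes. All 4 shares were below the background of the list. They count overlapping sets of the same 9 genes, so they are not separate results, and no test stands behind these differences. The gap was not seen with 50 kb on both sides, where 67.6% of the 34 genes and 68.5% of protein-coding genes had a region.

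The 14 regions were of ordinary size for the list. Their widths ran from 57 to 227 bp, with a median of 105 bp against 112 bp over all regions. Their absolute scores ran from 35.0 to 117, with a median of 60.0 against 49.4 over all regions and 50.9 over regions within 5 kb of any protein-coding gene. By rank in the whole list the weakest stood at percentile 28.3 (Cd79b) and the strongest at 88.9 (Pax5). Negative regions numbered 11 and positive regions 3, so 78.6% were negative (95% Wilson interval 52.4 to 92.4, for counting only). The share over the whole list, 67.4%, was inside that interval. With 4 of the 14 at Pax5 and 2 at Cd79b the regions are not independent, so the interval is too narrow.

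**Figure D1:**
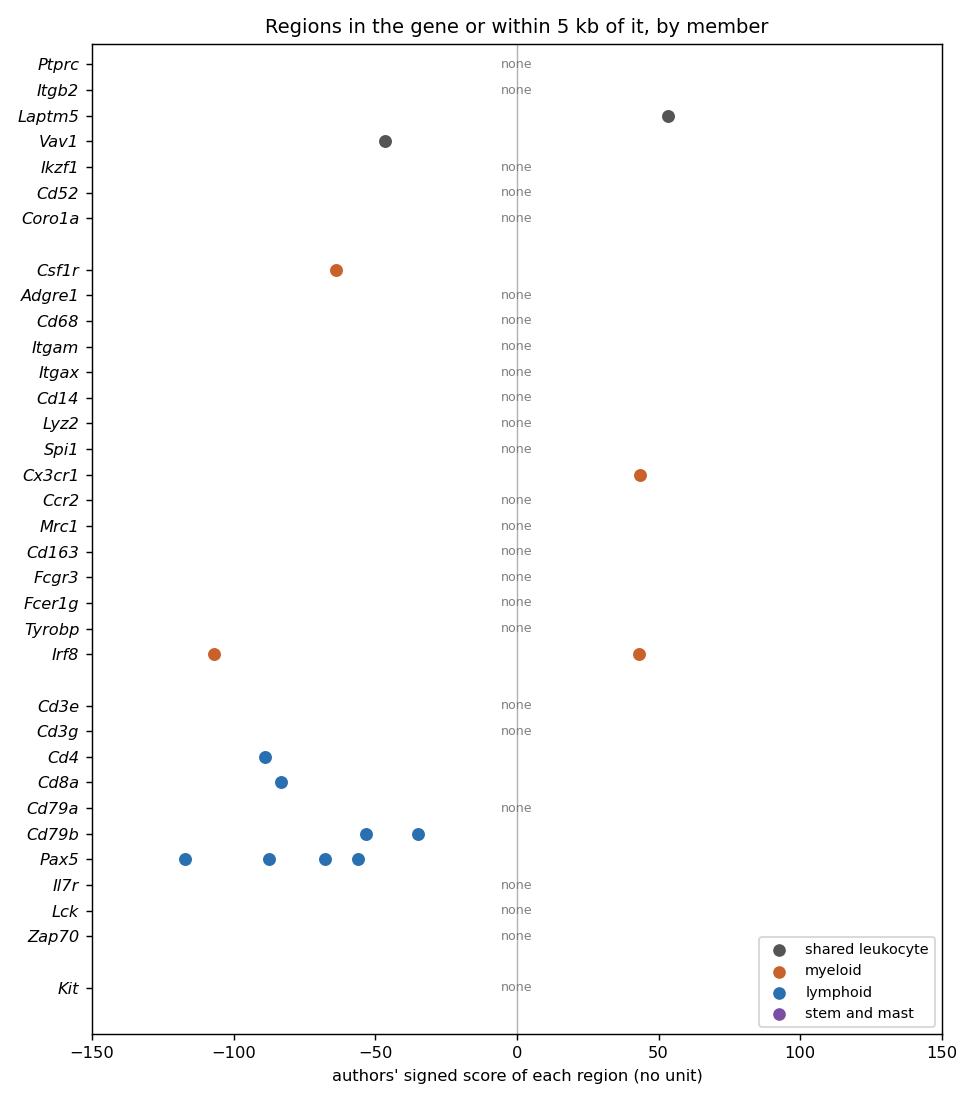
Signed score (horizontal axis, no unit) of each region in or within 5 kb of the 34 genes, which run down the vertical axis by group; each point is 1 region of the comparison of the 2 libraries and "none" marks a gene without a region. The 8 points of the lymphoid genes all lie left of 0, the strongest at -117 for Pax5, while the shared and myeloid genes have points on both sides.

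Among the genes shared by most leukocytes, 2 of 7 (28.6%, against 35.1% of protein-coding genes) had a region, Laptm5 and Vav1, and the signs differed. Laptm5, which encodes a lysosomal membrane protein of blood cells, had 1 positive region of 100 bp with a score of 53.5 at chr4:130939544-130939643. It lay 3.4 kb beyond the downstream end of the gene, on the side of the cartilage matrix gene Matn1, whose 5 kb window it also entered. Vav1, which encodes a signalling protein of blood cells, had 1 negative region of 82 bp inside the gene, 7.86 kb after the start site, with a score of -46.4 (chr17:57286918-57286999). Its promoter held the PU.1 motif GAGGAAGT, searched on both strands, which 3.13% of all protein-coding promoters held.

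The other shared genes had no region within 5 kb. They were Ptprc, which encodes the pan-leukocyte phosphatase CD45, Itgb2, the common beta chain of the leukocyte integrins, Ikzf1, the lymphoid regulator Ikaros, Cd52, a small surface glycoprotein, and Coro1a, an actin-binding protein. Around Ptprc the empty stretch was wide, with the nearest region 96.3 kb away although the gene is 113 kb long. The nearest region to Ikzf1 lay 8.23 kb off and scored -55.9.

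Among the myeloid genes 3 of 16 (18.8%, against 35.1% of protein-coding genes) had a region, and these were Csf1r, Cx3cr1 and Irf8. Csf1r, which encodes the receptor for the macrophage growth factor CSF1, had 1 negative region of 58 bp 15 kb above the lower end of the gene, with a score of -63.7 (chr18:61120562-61120619). The region also lies in the noncoding gene Gm52352, so it cannot be assigned to Csf1r alone. Cx3cr1, the fractalkine receptor gene of monocytes and resident macrophages, had 1 positive region of 95 bp inside the gene, 12.9 kb after the start site, with a score of 43.3 (chr9:120055357-120055451). Per bp of width, the absolute score was 1.1 at Csf1r and 0.455 at Cx3cr1, against a median of 0.43 over all regions.

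Irf8, a transcription factor gene needed for monocytes and dendritic cells, had regions of both signs. A negative region of 166 bp lay 4.41 kb before the start site and scored -107 (chr8:120731864-120732029). It also came within 5 kb of the gene Gm18709. A positive region of 89 bp lay inside the gene, 12.8 kb after the start site, and scored 43.2 (chr8:120749110-120749198). The CpG-rich promoter printed above lies between them and had no region.

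The 13 myeloid genes without a region included several of the markers by which macrophages are usually counted, but not all. Csf1r and Cx3cr1, also used as markers of macrophages or monocytes, had 1 region each. Those without were Adgre1 (F4/80), Cd68, Itgam (CD11b), Itgax (CD11c), Cd14, the mannose receptor gene Mrc1 and the haemoglobin scavenger receptor gene Cd163. The Fc receptor gene Fcgr3 and the adaptor genes Fcer1g and Tyrobp had none, nor did the lysozyme gene Lyz2, the chemokine receptor gene Ccr2 or Spi1, which encodes the myeloid regulator PU.1. The nearest region to Fcer1g, 5.63 kb away with a score of -47.1, was just outside the 5 kb limit, while the upstream region of Irf8 was just inside it at 4.33 kb from the gene. Cd14 was farthest from any region, at 308 kb.

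Lymphoid genes had regions in 4 of 10 members, and all 8 of these regions were negative. Without replicates, and with 4 of the 8 at a single gene, this split of signs is a description of the list. The share of lymphoid genes with a region was 40%, near the 35.1% of all protein-coding genes. Over all protein-coding genes with a region, 51.8% had negative regions alone.

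Pax5, the gene of the transcription factor that commits cells to the B lineage, had 4 regions, more than any other of the 34 genes, and all 4 were negative. The strongest, of 220 bp, scored -117 and lay 4.01 kb inside the downstream end of the gene (chr4:44528762-44528981). A pair of 102 bp and 57 bp in the middle of the gene, 0.222 kb apart, scored -87.6 and -56.2 (chr4:44614963-44615064 and chr4:44615286-44615342). The last, of 210 bp, scored -67.9 and lay 4.19 kb beyond the downstream end, with a further region of score -67.3 another 1.87 kb away, outside the 5 kb limit. The regions nearest to the start site were the pair, 95.4 and 95.7 kb after it.

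The length of Pax5, at 186 kb, bears on this count. The 300 protein-coding genes within 20 kb of it in length had a median of 3 regions (quartiles 1 and 5), so 4 regions is within their usual range. Of the 435 protein-coding genes with exactly 4 regions, 118 (27.1%) had negative regions alone and 30 (6.9%) had positive regions alone.

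The T-cell coreceptor genes Cd4 and Cd8a each had 1 negative region of similar score. Cd4, the coreceptor of helper T cells that mouse macrophages largely lack, had a region of 132 bp that scored -89.0 inside the gene, 3.21 kb from its lower end (chr6:124867906-124868037). It also came within 5 kb of Gpr162. Cd8a, the coreceptor of cytotoxic T cells, had a region of 227 bp that scored -83.4 (chr6:71378351-71378577). This region, the widest of the 14, lay 5.04 kb after the start site and 0.594 kb before the downstream end of the gene.

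Cd79b, which encodes a signalling chain of the B-cell receptor, had 2 negative regions outside the gene. They were 108 and 132 bp wide, scored -53.2 and -35.0, and lay 2.78 and 3.4 kb below the lower end of the gene (chr11:106308454-106308561 and chr11:106307812-106307943). Both also came within 5 kb of the growth hormone gene Gh. For Cd79a, the partner chain, the nearest region lay 102 kb away.

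The remaining lymphoid genes had no region within 5 kb. They were Cd3e and Cd3g, which encode CD3 chains of the T-cell receptor complex, and the kinase genes Lck and Zap70, which act below it. Another was Il7r, the receptor gene for the lymphocyte growth factor IL-7. The nearest region was 11.5 kb from Zap70 (score -72.6), 42.3 kb from Il7r (-39.2) and 144 kb from Lck (-107). Cd3e and Cd3g lie close together, with Cd3d between them, and shared the same nearest region, 56.7 and 85.9 kb away, with a score of -204. Kit, which encodes the stem cell factor receptor, also had none, and its nearest region lay 14 kb off with a score of -67.3.

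**Figure D2:**
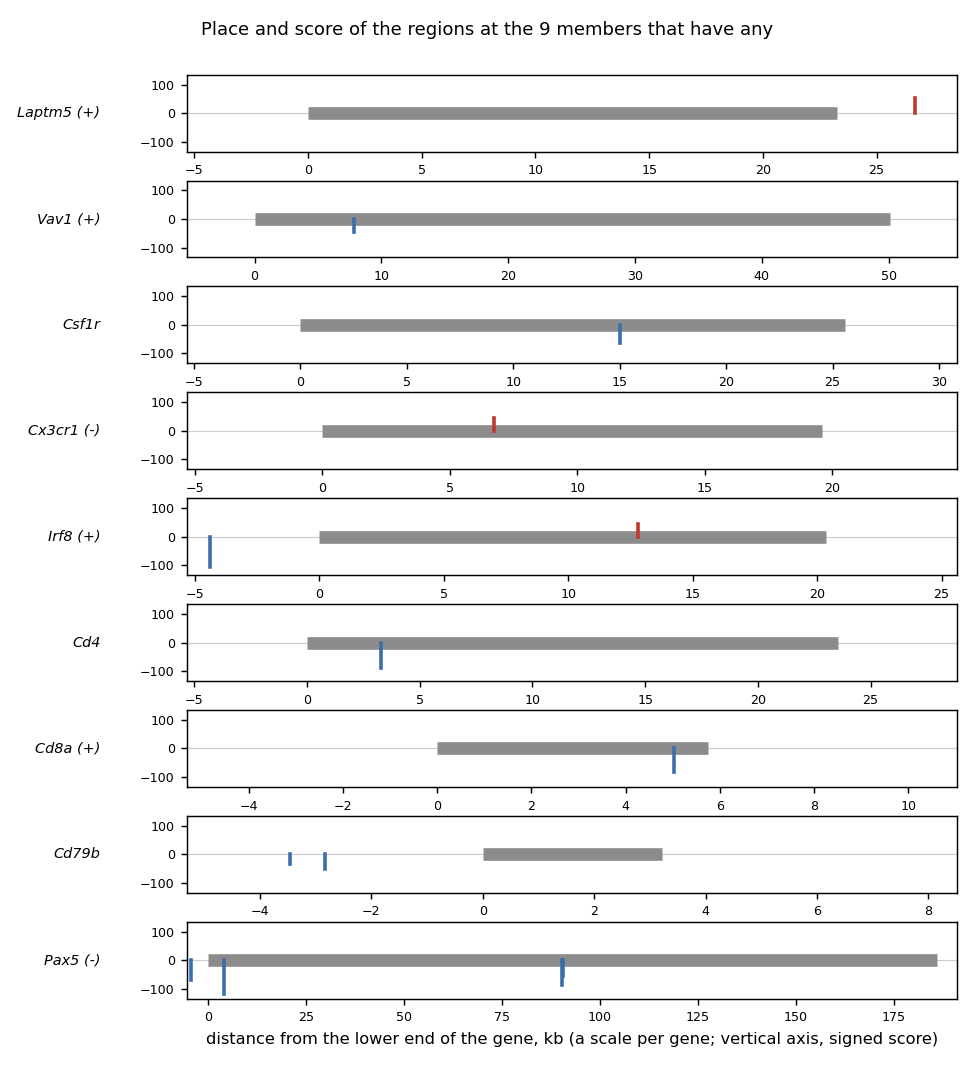
Place (horizontal axis, kb from the lower end of the gene, with a scale per gene) and signed score (vertical axis, no unit) of the 14 regions at the 9 genes that had any; the grey bar is the gene, its strand is given where listed, and lines are blue for negative and red for positive regions. Of the 14 regions, 9 lie inside a gene and 5 outside, and the region at Irf8 with a score of -107 lies before the gene.

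By position, none of the regions was at a listed start site. Of the 14, 9 lay inside a gene and 5 outside. A region inside the gene was found for 7 of the 34 genes (20.6%, against 28.9% of protein-coding genes). For the 10 regions whose gene had a listed start site, 0 lay within 1 kb of it, and the closest was the region 4.41 kb before Irf8. Regions were rare at start sites in the whole list too, where 0.903% of 21263 protein-coding promoters were overlapped by one. A neighbouring region within 5 kb in the list was found for 5 of the 14, at Pax5 and Cd79b, and all 5 had the sign of that neighbour. The Cd79b regions are each other's neighbour, as are the pair in the middle of Pax5, so these are not 5 separate cases. Over the whole list 78.6% of such neighbours shared a sign. The other 9 of the 14 stood alone, the pair of Irf8 regions being 17.1 kb apart with opposite signs.

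The nearest regions to the identity genes, and those within 50 kb of them, were mostly negative. The nearest region, inside or outside the gene, was negative for 29 of the 34 genes (85.3%), against 61 of 95 further immune genes outside the set (64.2%) and 67.6% of protein-coding genes. It was positive for 5 genes, Laptm5, Cd68, Cd14, Cx3cr1 and Irf8. Vav1 and Adgre1 shared a nearest region, as did Itgam and Itgax, and Cd3e and Cd3g, so the 34 genes are not independent. For 11 genes the nearest region lay more than 50 kb away. Where several regions lay inside a gene, the lowest by coordinate was taken whatever its sign. Among the 34 genes this arose only at Pax5, whose regions were all negative, but the shares compared with it depend on that choice. With the window widened to 50 kb on both sides, 23 of 34 genes (67.6%) had a region, against 68.5% of protein-coding genes. Those windows held 49 regions, the 14 within 5 kb included, of which 43 were negative, or 87.8% (interval 75.8 to 94.3). Negative regions were 72.3% of 253 regions for the 95 further immune genes and 67.0% of those within 50 kb of any protein-coding gene. The negative share was 84.6% of 13 regions for the shared genes, 80% of 15 for the myeloid genes, 94.1% of 17 for the lymphoid genes, and 4 of 4 regions at Kit. Over the whole list, 78.6% of neighbouring regions within 5 kb of each other shared a sign, so the 49 regions are not independent and the interval is too narrow.

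Of the 49 regions in these wider windows, 6 (12.2%) scored at least 100 in size, near the 16.3% of regions within 50 kb of any protein-coding gene. The region nearest to Cd163 was the strongest, with a score of -202 over 391 bp at a distance of 18.7 kb. The region nearest to Spi1 scored -119 at 16.9 kb. The regions nearest to Lyz2, Mrc1 and Tyrobp were weak, at -35.2, -23.2 and -22.6.

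**Figure D3:**
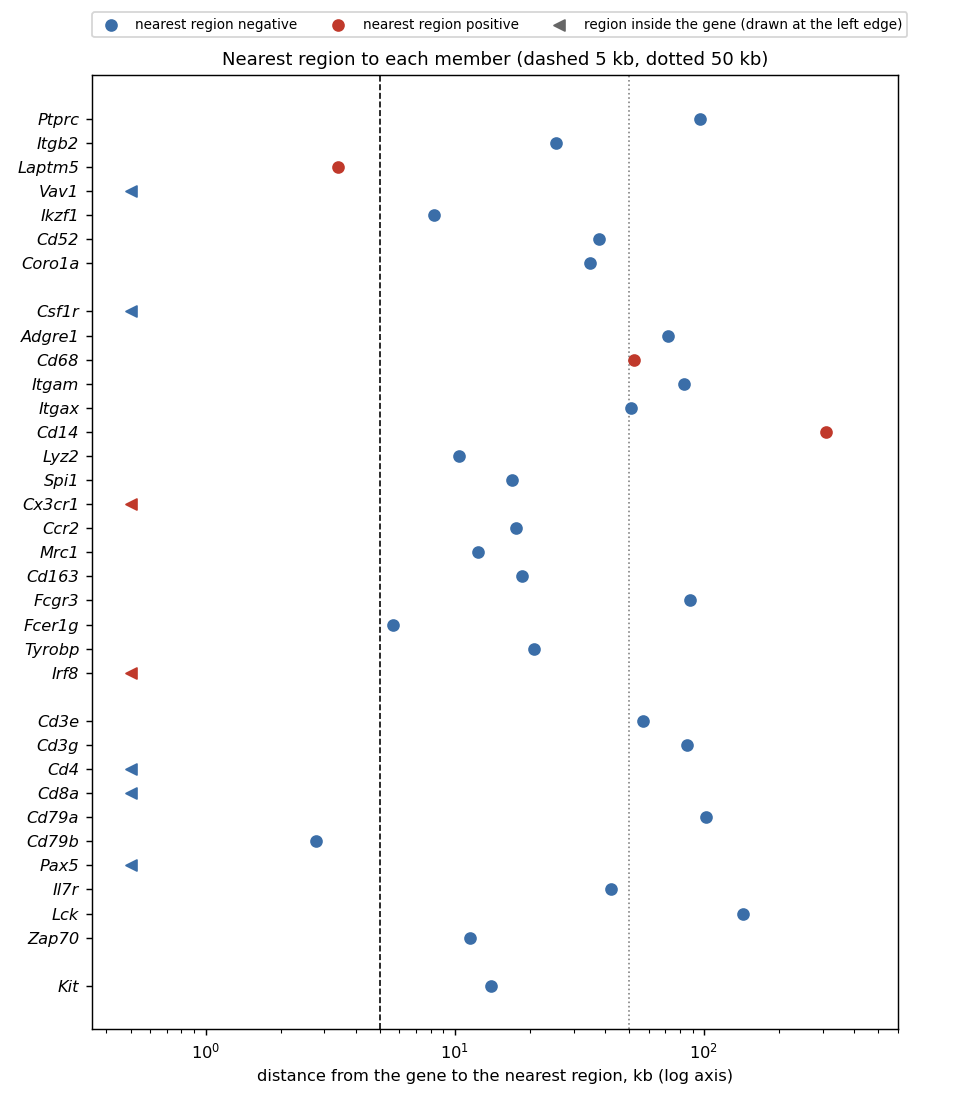
Distance in kb (horizontal log axis) from each of the 34 genes (vertical axis) to the nearest region of the list, blue where its score was negative and red where positive; triangles at the left edge mark a region inside the gene, and the lines stand at 5 and 50 kb. The nearest region is inside the gene for 7 genes and more than 50 kb away for 11, among them Cd14 at 308 kb.

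Of the 8 identity genes over 50 kb long, 2 had a region, against 73.2% of protein-coding genes of that length. A long gene has more room for a region, and over all protein-coding genes the share with a region was 10.4% under 5 kb of length and 86.2% over 100 kb. Of the 4 identity genes over 100 kb only Pax5 had a region, while Ptprc, Adgre1 and Mrc1, of 113, 125 and 103 kb, had none. Between 50 and 100 kb, Vav1 had a region and Itgam, Ikzf1 and Kit had none, where 60.7% of protein-coding genes had one. In the shorter classes the identity genes were near the background, with 1 of 8 under 5 kb, 2 of 7 from 5 to 20 kb (background 23.6%) and 4 of 11 from 20 to 50 kb (background 37.7%). The CpG content of the regions and gene windows and the coverage were not measured here, and their part in these counts was not tested.

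**Figure D4:**
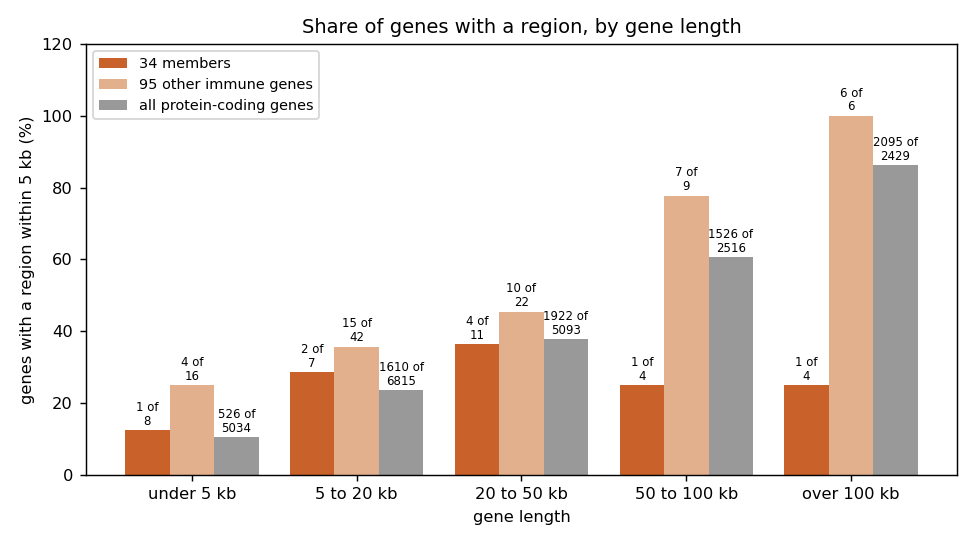
Share of genes (vertical axis, %) that had a region inside them or less than 5 kb away, by gene length (horizontal axis), for the 34 identity genes, 95 other immune genes and all protein-coding genes; numbers above the bars are genes with a region of all genes in the class. Over 100 kb the shares are 1 of 4 identity genes, 6 of 6 other immune genes and 2095 of 2429 protein-coding genes.

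The 95 further immune genes stood on the other side of the background. They were chosen by textbook expression, but with earlier results of these data known. They include Cd34 and Thy1, named above also as adipose progenitor markers. Of the 95 genes, 42 (44.2%) had a region within 5 kb, against 35.1% of protein-coding genes and 26.5% of the 34 identity genes. These differences were not tested. Regions stood at 7 of 15 further shared genes, 14 of 30 myeloid genes, 13 of 30 lymphoid genes and 8 of 20 genes of stem, mast, red cell and platelet lineages. Of their 97 regions 56.7% were negative (interval 46.8 to 66.1). The regions are not independent, with 10 at Runx1 and 9 at Dock2, so that interval is too narrow. The split differed by list, with 18 of 23 regions negative for the myeloid genes, 16 of 28 for the lymphoid genes, 14 of 22 for the shared genes and 7 of 24 for the stem, mast and red cell genes. Of the 24 regions for the stem, mast and red cell genes, 10 stood at Runx1 and 5 at Lyl1, all 5 outside Lyl1 itself. The further lymphoid genes had regions of both signs, unlike the 10 lymphoid identity genes.

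Transcription factor genes were among the further genes with the largest scores. Lyl1, a regulator of blood stem cells, had 5 positive regions up to a score of 716, but none lay inside Lyl1. The 4 strongest lie inside the neighbouring gene Nfix and the weakest inside Trmt1. Runx1, a blood stem cell regulator that mesenchymal cells also express, had 6 positive and 4 negative regions, the strongest of each sign at 286 and -226. Bcl11b, a T-cell commitment factor also active in skin and brain, had 7 of 8 regions negative (strongest -207).

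Gata3, a T-cell regulator also known to hold back fat cell formation in mouse, had 3 negative regions (strongest -163). Cd247, the zeta chain of the T-cell receptor, had 4 of 5 regions positive (strongest 142). The motility gene Dock2 had 7 of 9 regions negative (strongest -145), over 557 kb of gene, and Arhgdib had 1 region of each sign (strongest -116). No common sign ran through these genes.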

How the data were processed

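The deposited file is the authors' list of regions between the 2 libraries, without a header: chromosome, start, end and a signed score. Per the submitters' processing notes the genome was mm10. How reads were aligned, how regions were called and with what coverage is not given in the sources used here. Coordinates were read as BED and are printed 1-based. Genes came from a RefSeq table of GRCm38.p6, the assembly that mm10 names, and all 34 symbols and the 95 further symbols matched 1 protein-coding gene each. Overlap meant at least 1 bp with the gene extended by 5 kb (Python 3.11.15, pandas 2.3.3). Overlap counts, tested on 900 simulated regions of chromosome 19, differed from direct counting for 0 of 705 genes. Shares carry 95% Wilson intervals, which cover counting only.

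The members and lists were chosen with earlier results of these data known. All members are accounted for; of the further genes, the 8 with the largest absolute score of at least 100 were named, except 1 that is not reported here. Alternatives were the gene body alone, 50 kb on both sides, an absolute score of 100 or more, region midpoints, assignment to the nearest protein-coding gene, score per bp and a minimum width of 100 bp. The sequence of the regions themselves was not used here.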

Additional observations from a re-analysis of the deposited data

How the results depend on the processing

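Of 37 values recomputed under other settings, 25 stayed within 1.5 times the reported count or ratio, or inside the interval of the reported share, and 12 moved. With 50 kb on both sides, 23 of the 34 genes had a region (67.6%, against 68.5% of protein-coding genes), so their share was no longer below the background. So did 6 of the shared, 10 of the myeloid and 81 of the further immune genes (85.3%), and Kit had one too (1 of 1). When a score of at least 100 in size was required, 2 of the 34 genes had a region (5.88%, against 10.8% of protein-coding genes), as did 0 of the shared, 1 of the myeloid, 1 of the lymphoid and 10 of the further immune genes (10.5%, no longer above the background), and 100% of the 2 regions left were negative. With the gene body alone, 1 of the shared genes had a region, and 7 of the 34 did (20.6%, against 28.9% of protein-coding genes). Region midpoints and assignment to the nearest gene gave 9 of 34 genes and 78.6% negative, as reported. The unknown coverage limits what the absence of a region at a gene can show. No paired analysis was possible because each group has 1 library.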

Other observations

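Letters of the start-site sequences were searched for core motifs of blood regulators, as a description of these 300-base windows. The PU.1 motif GAGGAAGT stood in 1 of 34 promoters of the identity genes, 9 of 80 promoters of the further immune genes (11.2%) and 3.13% of protein-coding promoters. The RUNX motif TGTGGT stood in 7 of 34 promoters of the identity genes (20.6%), 20 of 80 of the further immune genes (25%) and 15% of protein-coding promoters. Both strands were searched, and the letters of one motif do not hold the other. One promoter of the further immune genes (1 of 80, 1.25%) was overlapped by a region, against 0.903% of protein-coding promoters.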
